A study of Mus musculus with 12 samples.

Results

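The 10 genes described here are associated with T cells, most of them with activated or regulatory ones: Cd3e, Foxp3, Il2ra, Icos, Ctla4, Tnfrsf4, Tnfrsf18, Tigit, Il10 and Gzmb. Some are also made by other cells, and in whole mouse lung their cells of origin were not determined. They were chosen by symbol, out of 19937 genes measured on 12 Affymetrix arrays of whole lung, 1 array for each Balb/c mouse. Each of the 10 had a single probe set assigned to it alone, so no choice between probe sets entered its values. House dust mite (HDM) extract, an allergen source used to model asthma, was given to mice of 3 groups of 3, and the fourth group of 3 served as controls. Eosinophilic mice received 3 intraperitoneal injections of the extract with 0.75 DU (development units) of each of the allergens Der f and Der p on 1.5 mg of aluminium hydroxide, an adjuvant, followed by intranasal challenge on days 26 to 28. Mixed mice had no adjuvant and received 0.75 DU of each allergen through the nose in 4 weekly applications. Neutrophilic mice were given the higher dose, 7.5 DU of each allergen, on that same weekly schedule. Control mice received PBS through the nose. The route, the adjuvant and the timing of the last dose therefore differ together between the eosinophilic group and the others. The labels used here state neither age nor sex.

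CD3 epsilon is part of the T cell receptor complex and is carried by resting and activated T cells alike. Activation through that complex induces the high-affinity chain of the interleukin 2 receptor (Il2ra) and a set of costimulatory and inhibitory surface receptors. Regulatory T cells are defined by the transcription factor Foxp3 and carry many of the same receptors at rest, so the receptors alone do not separate regulatory from recently activated conventional T cells. In the lung, regulatory T cells are known for restraining allergic responses to inhaled allergen. In whole tissue, a lower value from fewer cells of a type and one from less RNA per cell cannot be told apart, and neither can the matching higher values.

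Promoter sequence of 8 of the 10 genes was available from RefSeq (GRCm38.p6), as the 250 bases upstream of an annotated start site. Ctla4 and Il2ra are shown because they had the highest changes among the receptors in mixed and neutrophilic mice, and Gzmb because its window was the only member's to hold an AP-1 element. All are given 5′ to 3′ on the strand of the gene. Capitals mark matches to 3 motifs searched on both strands: the NFAT core TGGAAA, the AP-1 element TGANTCA and the STAT element TTCNNNGAA, named for factors that act downstream of T cell receptor and cytokine signals. The NFAT core in the Ctla4 window lies on the opposite strand at -144 to -139 relative to the start site, and the AP-1 match in the Gzmb window lies at -58 to -52. No match to the 3 motifs was found in the Il2ra window.
Ctla4, chr1:60908775-60909024, plus strand: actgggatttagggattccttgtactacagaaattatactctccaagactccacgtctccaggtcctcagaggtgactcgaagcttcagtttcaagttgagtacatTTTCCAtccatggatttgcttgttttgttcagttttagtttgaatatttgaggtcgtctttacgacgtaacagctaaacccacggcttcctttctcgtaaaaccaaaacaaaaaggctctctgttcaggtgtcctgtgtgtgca
Gzmb, chr14:56262335-56262584, minus strand: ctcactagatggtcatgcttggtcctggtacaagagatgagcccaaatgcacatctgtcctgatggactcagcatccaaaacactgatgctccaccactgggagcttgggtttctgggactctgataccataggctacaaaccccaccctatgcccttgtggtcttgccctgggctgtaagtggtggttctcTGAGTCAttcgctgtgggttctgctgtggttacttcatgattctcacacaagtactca
Il2ra, chr2:11642542-11642791, plus strand: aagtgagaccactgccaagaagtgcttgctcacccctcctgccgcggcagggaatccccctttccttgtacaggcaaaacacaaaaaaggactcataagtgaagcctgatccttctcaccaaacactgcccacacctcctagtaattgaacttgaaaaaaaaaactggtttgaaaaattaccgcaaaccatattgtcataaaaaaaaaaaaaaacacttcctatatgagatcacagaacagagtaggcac
Over all 32851 promoter windows of this length in the table, 18.6% held the NFAT core, 6.75% the AP-1 element and 7.02% the STAT element. Among the other members, Tnfrsf4 and Cd3e each held 1 NFAT core, Tnfrsf18 held 1 STAT element, and the second of 2 annotated Foxp3 start sites held an NFAT core and a STAT element that overlap. The Tigit window held none of the 3. These matches describe letters in the windows and were not tested as sites of binding.

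Values are log2 intensities, so a difference of 1 is a 2-fold change, and a level can be compared between arrays for the same gene but not between genes. Groups were compared with limma, a linear model over all 19937 genes, and a gene is said to have risen or fallen when its Benjamini-Hochberg adjusted p was under 0.05. Compressed value ranges set 3 arrays apart. The SD over genes was 0.995 on the array of eosinophilic mouse 7, 1.52 on that of eosinophilic mouse 9 and 1.51 on that of neutrophilic mouse 23, against 1.77 to 2.04 on the other 9. Set against the per-gene median of the rest, mouse 7 reached a correlation over genes of 0.356, and those 9 arrays reached 0.956 to 0.980. Its mean over 8 lung epithelial and endothelial genes was 6.71, against 10.6 to 11.4 on the other 11 arrays, so the lung identity of that array is not borne out by these markers. Its mean over 5 general leukocyte genes was low too, 5.69 against 7.91 to 10.1. The low values were thus not particular to lung genes, and these markers do not tell which tissue the array holds. Fits were therefore made over all 12 arrays and over the 11 arrays without mouse 7, and each value is given with the fit it comes from. Leaving it out does not alter the mixed or neutrophilic means, only the pooled spread they are judged against. With 3 arrays in a group, the estimates are of limited precision.

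Cd3e, the marker of T cells as a whole (9:44998735-45009663, GRCm38.p6), did not separate the groups. Its log2 level was 5.10, 8.08 and 6.02 in eosinophilic mice 7, 8 and 9, 8.10, 6.92 and 8.29 in mixed mice 15, 16 and 17, and 6.01, 8.71 and 8.76 in neutrophilic mice 23, 24 and 25, against 7.83, 7.66 and 6.74 in control mice 1, 2 and 3. The groups overlapped, and the 3 lowest values of all 12 were those of the arrays with a compressed range. Over 12 arrays the log2 difference from control was -1.01 in eosinophilic mice (adjusted p = 0.370, limma), 0.36 in mixed mice (adjusted p = 1.0) and 0.42 in neutrophilic mice (adjusted p = 0.842). Over 11 arrays the eosinophilic difference was -0.36 (adjusted p = 0.830), and the mixed and neutrophilic ones had adjusted p of 0.981 and 0.734. Without the 3 compressed arrays, where mouse 8 alone is left in that group, the eosinophilic difference was 0.67. The 95% interval of the neutrophilic difference over 12 arrays, -1.34 to 2.18, leaves room for either direction. Without neutrophilic mouse 24 or 25 the estimate was -0.023 or -0.050, and without the 3 compressed arrays it was 1.33 (adjusted p = 0.0272).

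Of 14 other genes of the T cell receptor and its signalling, none rose or fell in any HDM group over 12 arrays (limma), and 1, 1 and 4 had an unadjusted p under 0.05 in eosinophilic, mixed and neutrophilic mice, where 28.2%, 7.95% and 14.7% of all genes did. Over 11 arrays 2 rose, both in neutrophilic mice, where 2.24% of all genes rose. These were Zap70, the kinase recruited to the engaged receptor (log2 change 1.58, adjusted p = 0.00654, limma), and Thy1, a surface glycoprotein of T cells (1.30, adjusted p = 0.0421). The median change over the 14 genes was 0.10 in eosinophilic, 0.28 in mixed and 0.27 in neutrophilic mice over 11 arrays. Cd4 and Cd8a, the coreceptors of helper and cytotoxic T cells, did not pass the threshold in any group over 11 arrays. Cd4 differed from control by -0.17, 0.38 and 0.36, and Cd8a by 0.24, 0.021 and 0.30, in eosinophilic, mixed and neutrophilic mice. Ptprc, the pan-leukocyte antigen CD45, differed by -0.43, 0.37 and -0.037.

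Il2ra (2:11642792-11693194) had the largest mean change of the 10 in each HDM group. Its log2 level was 5.54, 8.17 and 7.36 in eosinophilic mice 7, 8 and 9, 8.50, 7.48 and 8.54 in mixed mice 15, 16 and 17, and 7.36, 9.08 and 8.42 in neutrophilic mice 23, 24 and 25, against 4.96, 4.64 and 5.46 in control mice 1, 2 and 3. Every HDM array lay above every control array, the nearest being mouse 7. There Il2ra was beside the median over genes of that array, 5.53. Over 12 arrays Il2ra rose 8.91-fold in mixed mice (log2 change 3.16 ± 0.62 SE, adjusted p = 0.0474, limma) and 9.62-fold in neutrophilic mice (3.27 ± 0.62 SE, adjusted p = 0.0201). In eosinophilic mice the change was 2.0 (adjusted p = 0.109). Over 11 arrays it rose in eosinophilic mice too, by 2.75 (6.71-fold, adjusted p = 0.0173), and the adjusted p in mixed and neutrophilic mice was 0.0014 and 0.000653. The mixed call ended when any control or mixed mouse, eosinophilic mouse 9 or neutrophilic mouse 24 or 25 was left out, with adjusted p up to 0.261. The neutrophilic call ended when any control mouse or neutrophilic mouse 24 or 25 was left out, with adjusted p up to 0.116.

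Foxp3 (X:7579676-7595243), which defines regulatory T cells, gave no call over 12 or 11 arrays. Its log2 level was 5.08, 4.63 and 4.42 in eosinophilic mice 7, 8 and 9, 5.94, 5.18 and 5.61 in mixed mice 15, 16 and 17, and 4.62, 6.05 and 5.69 in neutrophilic mice 23, 24 and 25, against 4.44, 4.67 and 5.27 in control mice 1, 2 and 3. Of the 3 arrays each, 2 mixed and 2 neutrophilic ones lay above all controls, and no eosinophilic array did. The differences from control over 12 arrays were -0.081 in eosinophilic mice (adjusted p = 0.887, limma), 0.79 in mixed mice (adjusted p = 0.708) and 0.66 in neutrophilic mice (adjusted p = 0.494). The 95% intervals ran from -0.93 to 0.77, from -0.063 to 1.64 and from -0.19 to 1.52 for eosinophilic, mixed and neutrophilic mice. Foxp3 exceeded the array median over genes, which was 5.43 to 5.58, on 4 of 12 arrays, so its signal was dim. Ctla4, Tnfrsf18 and Il10 exceeded that median on 5 of 12 arrays each, and Gzmb on 6. On every control array these genes lay below it, so their changes start from dim values too. Without the 3 compressed arrays the neutrophilic difference was 1.08 (adjusted p = 0.0183) and the mixed one 0.79 (adjusted p = 0.0725).

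Among 16 other genes linked to regulatory T cells, the ones that rose were Tnfrsf9 (4-1BB, a costimulatory receptor), Batf (a transcription factor of activated lymphocytes) and Ccr8 (a chemokine receptor of tissue regulatory and type 2 helper T cells). Over 12 arrays Tnfrsf9 rose in mixed mice by 3.96 (adjusted p = 0.0325, limma) and in neutrophilic mice by 3.27 (adjusted p = 0.0375). Batf rose in neutrophilic mice by 2.16 and Ccr8 by 2.09 (adjusted p = 0.0424 each), and over 11 arrays Batf also rose in mixed mice, by 2.31 (adjusted p = 0.0152). Of all genes, 0.326% rose in mixed and 0.662% in neutrophilic mice over 12 arrays, and 1.41% and 2.24% over 11 arrays. Ikzf2, which encodes Helios, a factor of regulatory T cells, differed by -0.38, -0.14 and -0.077 in eosinophilic, mixed and neutrophilic mice and passed in none. Nrp1, a surface receptor that lung endothelium also expresses, fell over 11 arrays in all 3 groups, by 1.21, 1.42 and 1.86 (adjusted p = 0.0476, 0.00671 and 0.000653). Over 12 arrays it passed in none, and its eosinophilic difference was -2.51 with mouse 7 included (adjusted p = 0.109). The list therefore held genes that rose and 1 that fell.

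**Figure D1:**
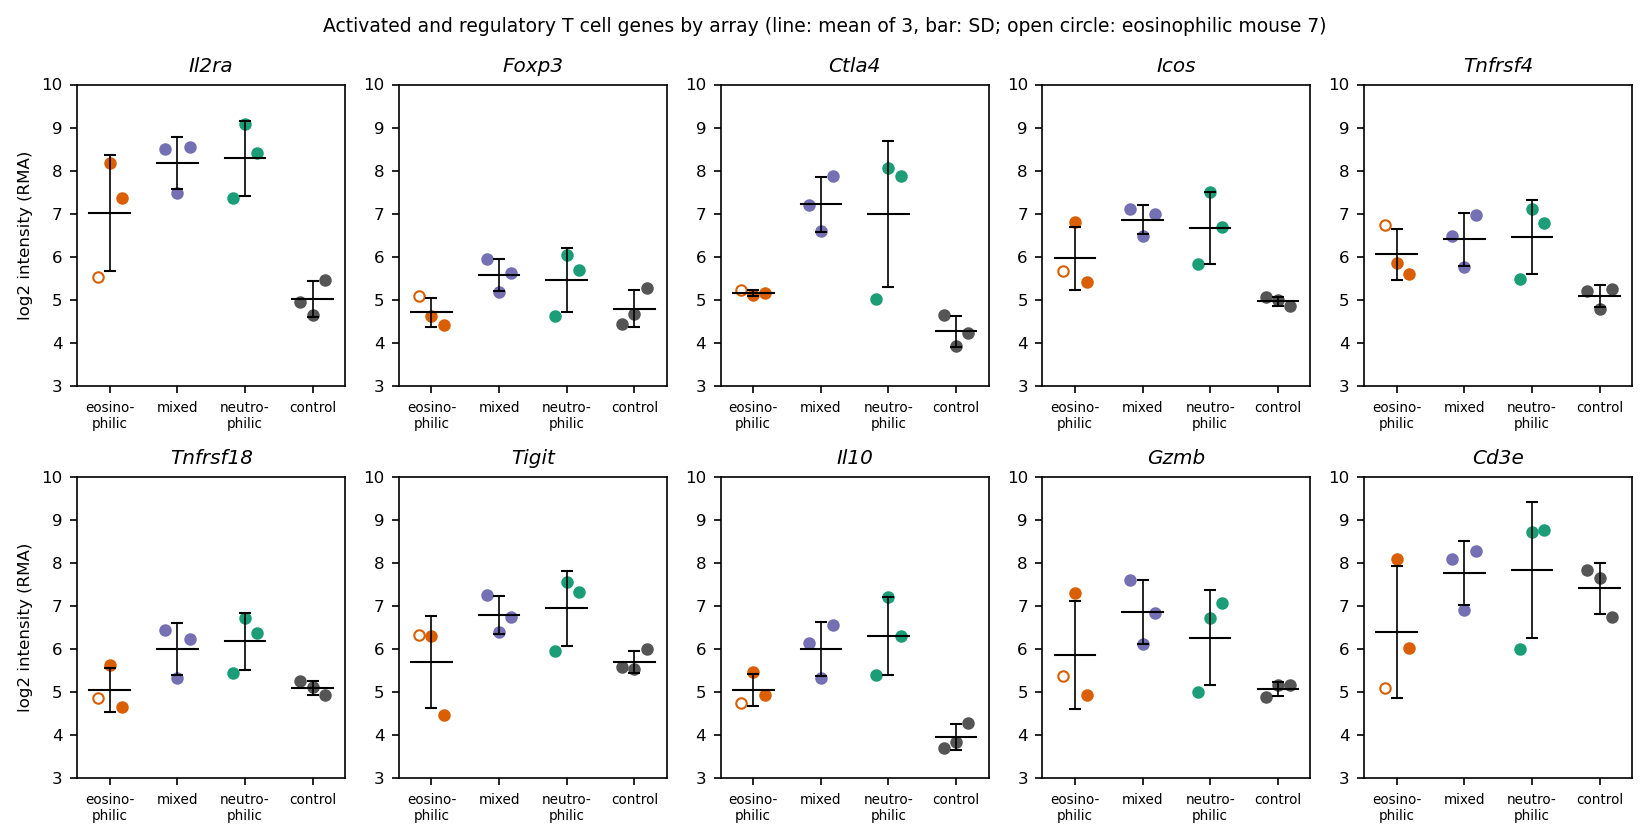
Log2 level of each of the 10 genes (vertical axis) on each of the 12 arrays, in panels by gene and columns by group, with the mean of 3 as a line, the SD as a bar and eosinophilic mouse 7 as an open circle. Il2ra lay above all controls on every HDM array, Ctla4 reached 7.88 in mixed and 8.05 in neutrophilic mice against at most 4.66 in controls, and Cd3e overlapped between all groups.

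Ctla4 (1:60909025-60915832), an inhibitory receptor that binds CD80 and CD86, was next after Il2ra in the size of its change in mixed and neutrophilic mice. Ctla4 had log2 levels of 5.22, 5.10 and 5.16 in eosinophilic mice 7, 8 and 9, 7.19, 6.60 and 7.88 in mixed mice 15, 16 and 17, and 5.03, 8.05 and 7.87 in neutrophilic mice 23, 24 and 25, against 4.66, 3.93 and 4.23 in control mice 1, 2 and 3. The 9 HDM values all exceeded the controls, and neutrophilic mouse 23 stood with the eosinophilic mice. Over 12 arrays the change from control was 0.89 in eosinophilic mice (adjusted p = 0.325, limma), 2.95 in mixed mice (adjusted p = 0.0717) and 2.71 in neutrophilic mice (adjusted p = 0.0509), so none passed. Over 11 arrays Ctla4 rose in mixed mice (7.74-fold, adjusted p = 0.0193) and in neutrophilic mice (6.55-fold, adjusted p = 0.0143). In eosinophilic mice the change was 0.86 with a 95% interval of -0.62 to 2.33 (adjusted p = 0.532).

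Icos (1:60960773-61000322), a costimulatory receptor of the CD28 family, is encoded next to Ctla4. Icos had log2 levels of 5.67, 6.80 and 5.41 in eosinophilic mice 7, 8 and 9, 7.10, 6.49 and 7.0 in mixed mice 15, 16 and 17, and 5.84, 7.51 and 6.69 in neutrophilic mice 23, 24 and 25, against 5.06, 4.99 and 4.86 in control mice 1, 2 and 3. All HDM arrays lay above all control arrays. None of the changes passed over 12 arrays, with adjusted p of 0.168, 0.0939 and 0.0675 in eosinophilic, mixed and neutrophilic mice (limma). Over 11 arrays Icos rose by 1.90 in mixed mice (3.72-fold, adjusted p = 0.0249) and by 1.71 in neutrophilic mice (3.27-fold, adjusted p = 0.0198), while the eosinophilic change was 1.14 (adjusted p = 0.244). Cd28 itself, the constitutive costimulatory receptor of T cells, differed by 0.34, 0.31 and -0.0056 in eosinophilic, mixed and neutrophilic mice and did not pass.

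Tnfrsf4 and Tnfrsf18 encode OX40 and GITR, TNF receptor family costimulators that lie close together on chromosome 4 (156013595-156016613 and 156026322-156028894). Tnfrsf4 had log2 levels of 6.73, 5.85 and 5.6 in eosinophilic mice 7, 8 and 9, 6.48, 5.76 and 6.97 in mixed mice 15, 16 and 17, and 5.47, 7.10 and 6.79 in neutrophilic mice 23, 24 and 25, against 5.21, 4.79 and 5.25 in control mice 1, 2 and 3. All HDM arrays again lay above all controls. Tnfrsf18 had 4.85, 5.64 and 4.66 in eosinophilic mice, 6.44, 5.32 and 6.23 in mixed mice and 5.43, 6.73 and 6.37 in neutrophilic mice, in the same order of mice, against 5.26, 5.11 and 4.94 in control mice. Its eosinophilic values straddled the controls, while each mixed and neutrophilic value was higher than all of them. Neither gene passed over 12 arrays, where the eosinophilic changes were 0.98 for Tnfrsf4 and -0.053 for Tnfrsf18 (adjusted p = 0.181 and 0.930, limma). Without mouse 7 the eosinophilic change of Tnfrsf4 was 0.64 (adjusted p = 0.473). Over 11 arrays Tnfrsf4 rose in neutrophilic mice by 1.37 (2.59-fold, adjusted p = 0.0459, limma) and stood 1.32 higher in mixed mice without passing (adjusted p = 0.107). Tnfrsf18 differed by 0.046, 0.89 and 1.07 in eosinophilic, mixed and neutrophilic mice (adjusted p = 0.963, 0.327 and 0.102).

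Tigit (16:43626137-43665125), an inhibitory receptor that binds CD155 (Pvr) and Nectin2, had log2 levels of 6.33, 6.30 and 4.47 in eosinophilic mice 7, 8 and 9, 7.26, 6.39 and 6.74 in mixed mice 15, 16 and 17, and 5.95, 7.57 and 7.33 in neutrophilic mice 23, 24 and 25, against 5.58, 5.53 and 6.0 in control mice 1, 2 and 3. The mixed mice were all above the controls, neutrophilic mouse 23 was within their range, and eosinophilic mouse 9 was the lowest of all 12. Over 11 arrays the differences were -0.32, 1.09 and 1.24 in eosinophilic, mixed and neutrophilic mice, none of which passed (adjusted p = 0.776, 0.335 and 0.126, limma). Over 12 arrays none passed either (adjusted p = 0.994, 0.678 and 0.285). The eosinophilic estimate was -0.0052 over 12 arrays and 0.61 without mouse 9.

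Of 12 ligands and receptor partners, 1 rose over 12 arrays, in mixed mice, where 0.326% of all genes rose. It was Cd80, the shared ligand of CTLA4 and CD28 on antigen-presenting cells (2.11, adjusted p = 0.0452, limma). Over 11 arrays Cd80 also rose in neutrophilic mice (1.66, adjusted p = 0.0157), as did Il2rb, the signalling partner of Il2ra (1.43, adjusted p = 0.0455), and Cd86, the second such ligand, rose in mixed mice (1.96, adjusted p = 0.0383). Of all genes, 1.41% rose in mixed and 2.24% in neutrophilic mice over 11 arrays. Icosl, Tnfsf4, Tnfsf18, Pvr and Nectin2, the ligands of ICOS, OX40, GITR and TIGIT, passed in no group, and neither did the receptor chains Il10ra and Il10rb or the factors Stat5a and Stat5b. Il2rg was not analysed here.

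Among 16 further activation and checkpoint genes, none passed over 12 arrays (limma), where 2, 6 and 6 had an unadjusted p under 0.05 in eosinophilic, mixed and neutrophilic mice. Of all genes, 28.2%, 7.95% and 14.7% had one, so the eosinophilic count is not above that share. Over 11 arrays 2 rose in mixed mice and 4 in neutrophilic mice, where 1.41% and 2.24% of all genes rose. In mixed mice these were Cd44, an adhesion receptor of antigen-experienced T cells (1.58, adjusted p = 0.0390, limma), and Cd200, a ligand that restrains myeloid cells (1.07, adjusted p = 0.0449). In neutrophilic mice they were Pdcd1 (PD-1, an inhibitory receptor; 1.93, adjusted p = 0.00924), Slamf1 (2.48, adjusted p = 0.0205), Cd44 (1.34, adjusted p = 0.0406) and Tnfrsf8 (CD30; 1.11, adjusted p = 0.0402). No gene of this list rose or fell in eosinophilic mice.

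Il10 (1:131019845-131024970) encodes a cytokine that dampens inflammation and is made by regulatory and other T cells, B cells and macrophages. Il10 had log2 levels of 4.75, 5.48 and 4.92 in eosinophilic mice 7, 8 and 9, 6.15, 5.32 and 6.55 in mixed mice 15, 16 and 17, and 5.39, 7.21 and 6.31 in neutrophilic mice 23, 24 and 25, against 3.71, 3.85 and 4.29 in control mice 1, 2 and 3. All 9 HDM values lay above the controls. Over 12 arrays Il10 rose 5.12-fold in neutrophilic mice (log2 change 2.36 ± 0.45 SE, adjusted p = 0.0215, limma), and the change was 2.06 in mixed mice (adjusted p = 0.0738) and 1.10 in eosinophilic mice (adjusted p = 0.151). Over 11 arrays it rose in mixed mice as well (4.16-fold, adjusted p = 0.0181), and the eosinophilic change was 1.25 (adjusted p = 0.218). The neutrophilic call ended when any control mouse or neutrophilic mouse 24 or 25 was left out, with adjusted p up to 0.124. Of 8 markers of myeloid cells, which can also make Il10, Cd14 alone passed over 12 arrays, and it rose by 4.37 in mixed and 4.24 in neutrophilic mice over 12 arrays (adjusted p = 0.0385 and 0.0215). Over 11 arrays 2 of the 8 rose in eosinophilic, 1 in mixed and 3 in neutrophilic mice, where 0.451%, 1.41% and 2.24% of all genes rose. At an unadjusted p under 0.05 (limma) there were 7, 4 and 4 of the 8, where 16.4%, 12.9% and 23.1% of all genes had one. The mean over the 8 was 5.94 to 8.78 in eosinophilic, 7.84 to 8.54 in mixed and 7.41 to 8.81 in neutrophilic mice, against 6.71 to 7.24 in control mice. Their part in the Il10 values was not tested.

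Gzmb (14:56258836-56262334) encodes granzyme B, a protease of cytotoxic granules. Its log2 level was 5.38, 7.29 and 4.94 in eosinophilic mice 7, 8 and 9, 7.61, 6.12 and 6.84 in mixed mice 15, 16 and 17, and 5.0, 6.71 and 7.07 in neutrophilic mice 23, 24 and 25, against 4.88, 5.16 and 5.17 in control mice 1, 2 and 3. The mixed mice lay above the controls, while eosinophilic mouse 9 and neutrophilic mouse 23 were within their range. No comparison passed over 12 or 11 arrays, and the 11-array changes were 1.05, 1.79 and 1.19 in eosinophilic, mixed and neutrophilic mice (adjusted p = 0.435, 0.156 and 0.253, limma). Over 12 arrays the eosinophilic change was 0.80. Of 14 other cytotoxic granule and NK cell genes, 0 passed in any HDM group with 12 or 11 arrays (limma), and over 11 arrays 2, 2 and 0 had an unadjusted p under 0.05 in eosinophilic, mixed and neutrophilic mice, where 16.4%, 12.9% and 23.1% of all genes did. Prf1, which encodes perforin, differed by -0.10, 0.13 and -0.27, and the NK cell receptor gene Ncr1 by -1.14, -0.76 and -0.71, in eosinophilic, mixed and neutrophilic mice. The mast cell and basophil list, whose cells can also carry granzyme B, had a mean level of 4.58 to 5.17 in eosinophilic, 4.63 to 4.75 in mixed and 4.78 to 5.23 in neutrophilic mice, against 4.25 to 4.41 in control mice. Its highest values, 5.17, 5.12 and 5.23, were those of the compressed arrays of mice 7, 9 and 23, and mouse 8 was at 4.58. Of the 9 genes of that list, 1 rose over 11 arrays, in neutrophilic mice, where 2.24% of all genes rose. The part of mast cells and basophils in the Gzmb values was not tested.

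Counted over the 10 genes, 12 arrays gave 0 that rose in eosinophilic, 1 in mixed (Il2ra) and 2 in neutrophilic mice (Il2ra and Il10), where 0.0752%, 0.326% and 0.662% of all 19937 genes rose (limma). At an unadjusted p under 0.05 there were 3, 7 and 7 members, where 28.2%, 7.95% and 14.7% of all genes had one, so the eosinophilic count is near that of all genes. Over 11 arrays 1 member rose in eosinophilic, 4 in mixed and 5 in neutrophilic mice, where 0.451%, 1.41% and 2.24% of all genes did. No member fell in any of the 3 comparisons. The median change of the 10 over 11 arrays was 0.75 in eosinophilic, 1.55 in mixed and 1.31 in neutrophilic mice, against medians over all genes of 0.012, 0.0046 and 0.048. Members whose 3 HDM arrays all lay above all 3 controls numbered 5 in eosinophilic, 8 in mixed and 6 in neutrophilic mice, where 11.1%, 9.16% and 12.6% of all genes did so. The 3 comparisons share the control arrays and are therefore not independent.

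The compressed arrays bear on these counts. On an array of narrow range, values lie nearer the array median, so genes dim in controls can be higher and bright genes lower. This limits what the separation of mouse 7 from controls can show for Il2ra, Ctla4, Icos, Tnfrsf4 and Il10. The count of 5 in eosinophilic mice is limited in the same way. Each of the 10 genes was lowest on mouse 23 among the neutrophilic arrays, and each was lowest on mouse 16, which has the narrowest range of the other 9 arrays, among the mixed arrays. With mice 7, 9 and 23 all left out, 8 members rose in mixed mice (all but Foxp3 and Cd3e) and 10 in neutrophilic mice, where 3.59% and 5.76% of all genes rose. In that fit the neutrophilic changes were 3.73 for Il2ra, 3.69 for Ctla4, 2.81 for Il10 and 2.13 for Icos. The eosinophilic group is then 1 array, mouse 8, whose spread is assumed to be that of the other groups. Il2ra, Icos and Gzmb rose on it by 3.15, 1.83 and 2.23, where 1.47% of all genes rose.

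**Figure D2:**
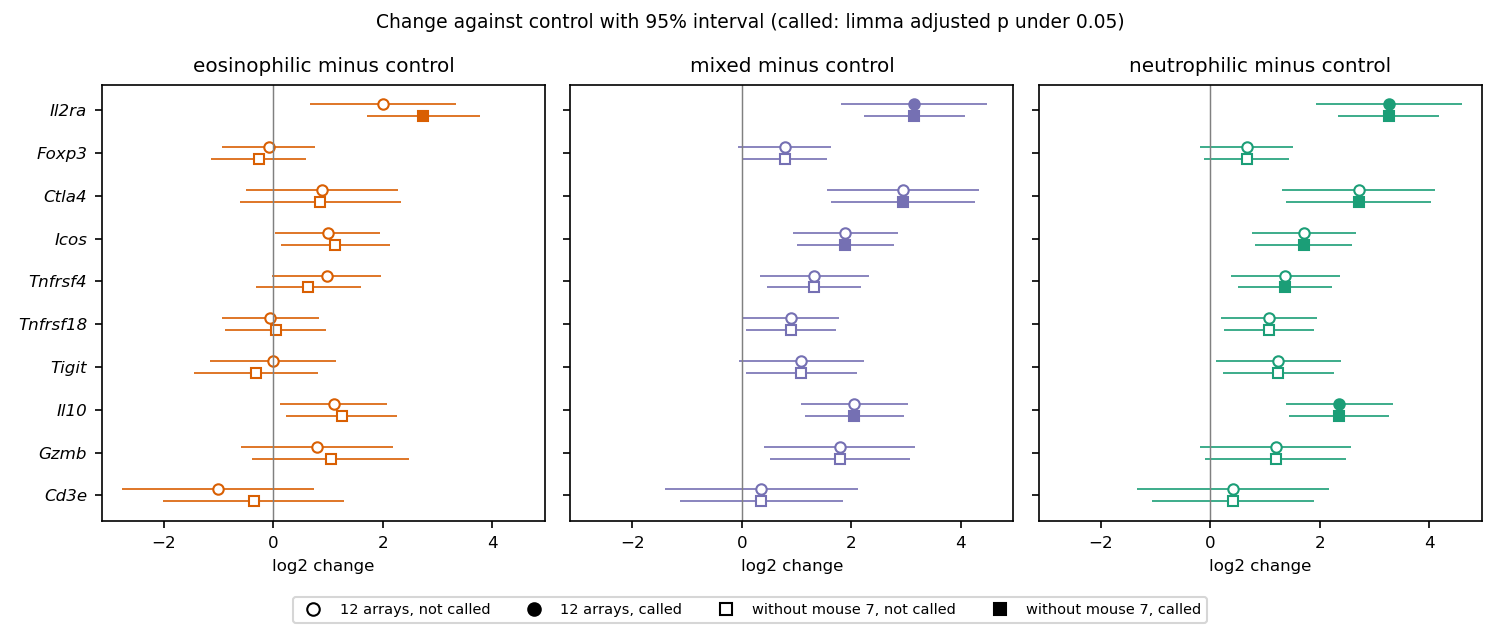
Log2 change from control (horizontal axis) of the 10 genes in eosinophilic, mixed and neutrophilic mice, with 95% intervals from the limma fits over 12 arrays (circles) and 11 arrays (squares), filled where the adjusted p was under 0.05. The mixed and neutrophilic estimates all lie above 0, between 0.36 and 3.27, and the eosinophilic ones spread from -1.01 to 2.75.

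Differences among the 3 HDM groups did not pass for any member. In the mixed against eosinophilic comparison 0 of 10 were called over 12 or 11 arrays, where 0.00502% and 0.0502% of all genes were. Neutrophilic against eosinophilic gave 0 of 10, with 0.115% and 0.191% of all genes, and neutrophilic against mixed gave 0 of 10, with 0% of all genes in both fits. Over 11 arrays 3 members had an unadjusted p under 0.05 between mixed and eosinophilic mice, 5 between neutrophilic and eosinophilic mice, and 0 between neutrophilic and mixed mice, where 7.24%, 7.78% and 7.32% of all genes had one. Ctla4 had the largest difference between mixed and eosinophilic mice, 2.10 with a 95% interval of 0.62 to 3.57 (adjusted p = 0.568, limma), and stood 1.85 higher in neutrophilic than in eosinophilic mice (0.38 to 3.33, adjusted p = 0.512). Tigit was 1.56 higher in neutrophilic than in eosinophilic mice (0.42 to 2.70, adjusted p = 0.466). Il2ra differed by 0.41 between mixed and eosinophilic mice, with an interval of -0.62 to 1.44. Between the high and the low intranasal dose, neutrophilic minus mixed, the members differed by -0.60 (Gzmb) to 0.30 (Il10). The interval for Il2ra was -0.81 to 1.03 and that for Ctla4 -1.56 to 1.08, so neither interval shows that the doses act alike. Leaving out eosinophilic mouse 8 leaves the compressed arrays of mice 7 and 9 as that group. Then 5 members were called between mixed and eosinophilic mice, where 30% of all genes were, and 1 between neutrophilic and eosinophilic mice, where 13.9% were. Without neutrophilic mouse 23, 1 member was called between neutrophilic and eosinophilic mice, where 0.221% of all genes were.

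Asked whether the 4 groups differed at all, the moderated F test called 0 of the 10 over 12 arrays, where 0.883% of all genes were called and 6 members had an unadjusted p under 0.05, as did 16.6% of all genes, and 4 over 11 arrays, where 4.6% were. These 4 were Il2ra (adjusted p = 0.00173), Il10 (adjusted p = 0.0165), Ctla4 (adjusted p = 0.0251) and Icos (adjusted p = 0.0443). By group mean over the 11 arrays, 6 members were highest in neutrophilic mice and 4 in mixed mice (Foxp3, Ctla4, Icos and Gzmb). Controls were lowest for 7, and eosinophilic mice for Foxp3, Tigit and Cd3e. Along this order the values of neighbouring groups overlapped, except that eosinophilic mice lay above controls for Il2ra, Ctla4, Icos, Tnfrsf4 and Il10, and mixed mice lay above controls for Tigit. Eosinophilic mouse 8 was higher than mouse 9 for 9 of the 10, the exception being Ctla4. Mouse 8 stood above all controls for Tigit (6.30) and Cd3e (8.08). The low eosinophilic ranks of these genes therefore rest on mouse 9, whose array is compressed. For Foxp3, mouse 8 (4.63) was within the control range.

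Because Cd3e itself was low on the compressed arrays, each member was also set against Cd3e on its own array and centred on the control mean. Differences between genes are smaller on an array of narrow range. The members lay below Cd3e on all control arrays, so on a compressed array they can come nearer to it whatever their own level. The subtraction does not remove this. Il2ra then stood at 2.83, 2.48 and 3.73 in eosinophilic mice 7, 8 and 9, 2.79, 2.95 and 2.65 in mixed mice 15, 16 and 17, and 3.74, 2.76 and 2.04 in neutrophilic mice 23, 24 and 25, against -0.48, -0.63 and 1.11 in control mice 1, 2 and 3. The 3 HDM groups, at 3.01 ± 0.65, 2.80 ± 0.15 and 2.85 ± 0.85 (SD, n = 3 each), lay within their spread of one another. The highest values, 3.74 and 3.73, were those of the compressed arrays of mice 23 and 9. The narrow ranges enter these means, which therefore do not show that the groups are alike. Ctla4 stood at 3.26, 0.16 and 2.27 in eosinophilic mice, at 2.23, 2.82 and 2.73 in mixed mice and at 2.16, 2.48 and 2.24 in neutrophilic mice, in the same order of mice, against -0.037, -0.59 and 0.63 in control mice. Neutrophilic mouse 23 stood next to mice 24 and 25 on this measure, and eosinophilic mouse 8 was within the control range. A fit with Cd3e subtracted from every gene, chosen after the data were seen, called 0 members in each comparison over 12 arrays (limma), and at an unadjusted p under 0.05 it gave 3 of 9 in eosinophilic, 2 in mixed and 3 in neutrophilic mice against control, where 2.87%, 0.988% and 2.75% of all genes had one. Over 11 arrays these counts were 1, 2 and 3, where 0.567%, 1.12% and 3.22% of all genes had one, and the eosinophilic difference of Il10 was 1.61, against 2.11 over 12 arrays, and that of Icos 1.50, against 2.0 over 12 arrays. The spread of Cd3e enters every gene in that fit.

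**Figure D3:**
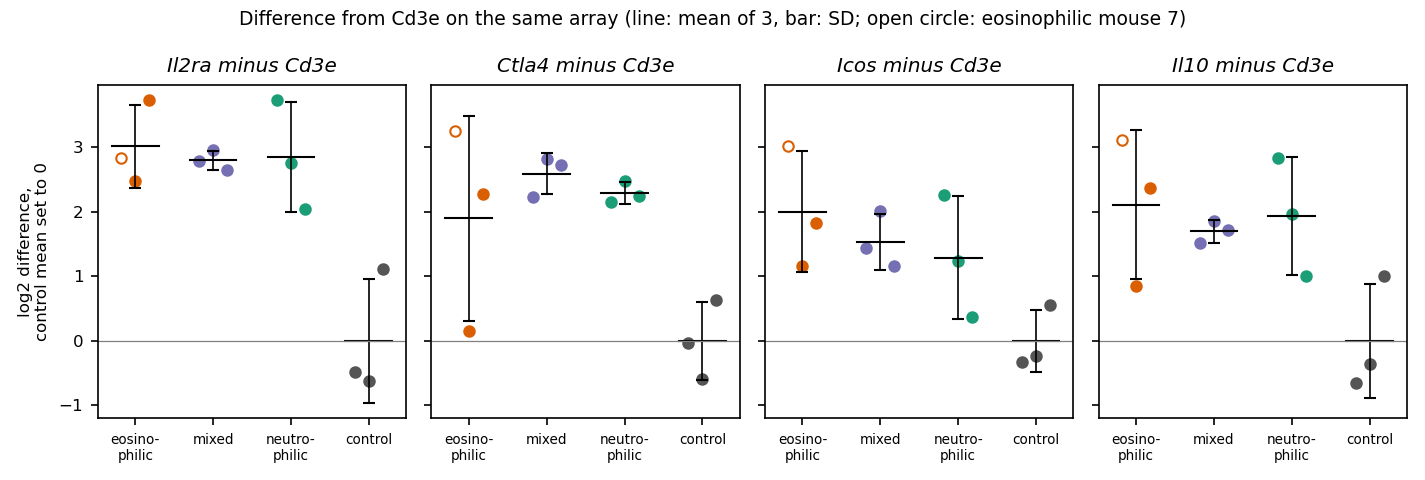
Log2 values of Il2ra, Ctla4, Icos and Il10 minus that of Cd3e on the same array, centred on the control mean (vertical axis), for the 12 arrays by group, with means as lines, SDs as bars and eosinophilic mouse 7 as an open circle. Il2ra lies at 2.04 to 3.74 on the HDM arrays, against -0.63 to 1.11 in controls, and Ctla4 in eosinophilic mice spreads from 0.16 to 3.26. The compressed ranges of mice 7, 9 and 23 enter these differences.

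Genes whose changes from the control mean most resembled those of a member over the 11 arrays were ranked by the root mean square difference on the log2 scale. For Ctla4 these were Irf4 (0.423), Tnfaip3 (0.437) and Ly6g (0.465), where the median over all genes was 2.29. For Icos they were Scimp (0.246), Olr1 (0.265) and Egr2 (0.276), with a median of 1.54. For Foxp3 they were Chac1 (0.254), Urah (0.254) and Prr15l (0.290), with a median of 0.825. The arrays share their compressed ranges, which enter the likeness of any genes that are low on them.

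Genes of other cell types and tissues that lung dissection can bring along were also counted. Over 11 arrays 0 of 5 naive T cell genes and 0 of 7 B cell genes passed in any HDM group (limma). At an unadjusted p under 0.05 there were 2, 2 and 1 naive T cell genes and 3, 1 and 2 B cell genes in eosinophilic, mixed and neutrophilic mice. Of all genes, 16.4%, 12.9% and 23.1% had one. Differences above 0 numbered 1, 2 and 1 of the 5 naive T cell genes and 1, 3 and 5 of the 7 B cell genes. The thymus and lymph node list of 8 genes gave 1 call in mixed and 1 in neutrophilic mice, both for Ccl19, a chemokine of lymphoid stroma (1.89 and 2.39, adjusted p = 0.00323 and 0.000391, limma); its other 7 genes did not pass. The mean over the 8 was 5.19 to 5.96 in eosinophilic, 4.97 to 5.62 in mixed and 5.23 to 5.53 in neutrophilic mice, against 4.66 to 4.80 in control mice. Its highest eosinophilic and neutrophilic values, 5.96, 5.50 and 5.53, were those of the compressed arrays of mice 7, 9 and 23. The HDM arrays of usual range also lay above all controls, at 5.19 in mouse 8, 4.97 to 5.62 in mixed mice and 5.46 and 5.23 in mice 24 and 25. The part of lymphoid tissue in the members' values was not tested. Lung epithelial and endothelial genes fell in 1 case of 8, Pecam1 in neutrophilic mice (by 0.93, adjusted p = 0.0394).

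**Figure D4:**
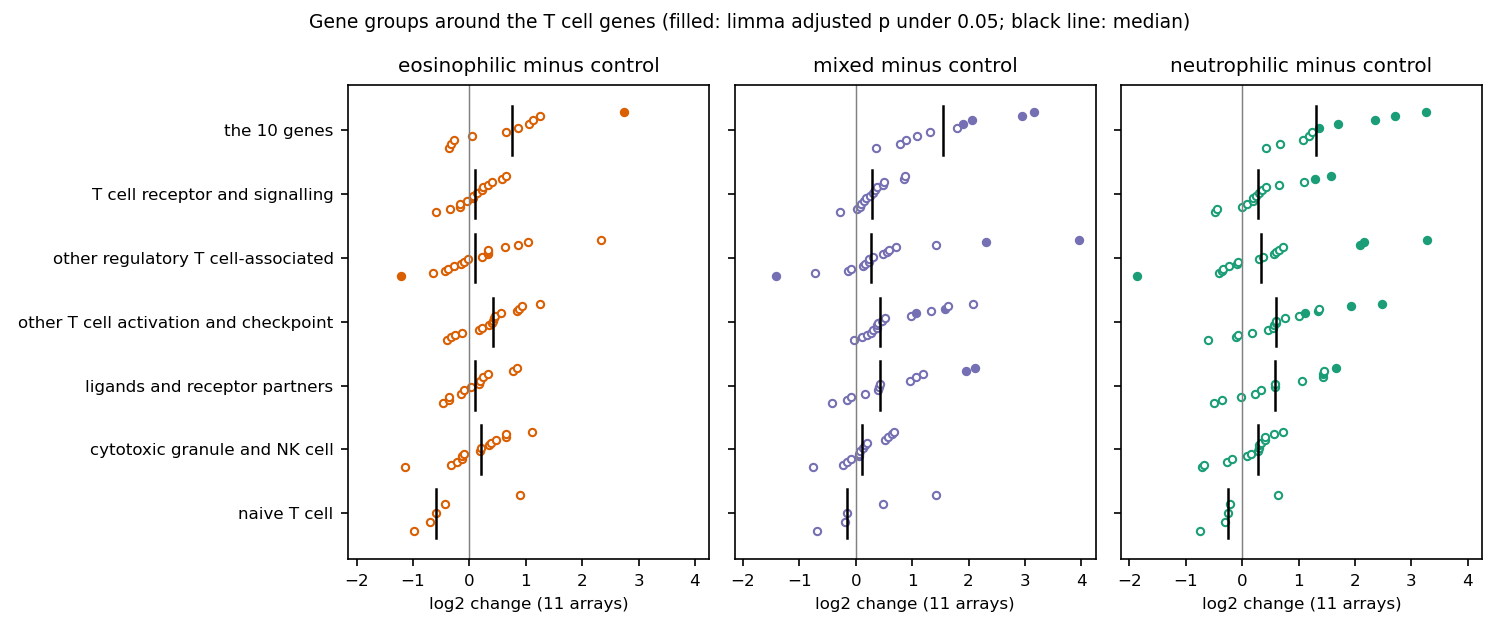
Log2 change from control over 11 arrays (horizontal axis) for the 10 genes and the measured genes of 6 other groups (rows), in panels by HDM group, filled where the adjusted p was under 0.05 and with a black line at each median. The medians of the 10 members are 0.75, 1.55 and 1.31 in eosinophilic, mixed and neutrophilic mice, and those of the T cell receptor genes 0.10, 0.28 and 0.27.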

How the data were processed

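Gene expression was measured on 12 Affymetrix arrays of whole mouse lung, 3 in each of 4 groups taken from the labels; replicates are separate mice, and the labels give no batch. The deposited values are log2 intensities. The authors summarised them by RMA, and the software was Affymetrix Expression Console (both per the submitters' processing notes, which state no version), and base 2 was read from the range of the values. RMA normalizes quantiles of the probes, yet the deposited arrays still differ in range, and differences between genes are smaller on an array of narrow range. No further normalization was applied, and no detection calls were used.

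Of 34760 probe sets, 21640 carried 1 gene symbol, 1321 several, and 11799 were not listed in the platform annotation. Entrez IDs of 21553 matched RefSeq (GRCm38.p6), and 0 symbols changed. The probe set with the highest mean stood for a gene, which left 19937 genes, 954 of them with several probe sets. limma 3.58.1 in R 4.3.3 fitted a mean per group to all 12 arrays, with Benjamini-Hochberg adjustment over all genes within a comparison, two-sided. The script was tested on simulated data. Alternatives left out arrays, changed the scaling, the variance model, the samples fitted, the probe sets or a filter on dim genes, and, chosen after the data were seen, subtracted Cd3e on each array.

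The members and all gene lists were chosen with earlier results of these data known, so their counts are descriptions. Of 130 listed genes 122 were measured, and the rest were not analysed here. Named genes were all members, the ligands and partners, up to 5 genes of each other list by smallest p over 11 arrays, 6 set genes (Cd4, Cd8a, Cd28, Ikzf2, Prf1, Ptprc) and 3 of like pattern for each of Foxp3, Ctla4 and Icos.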

Additional observations from a re-analysis of the deposited data

How the results depend on the processing

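The counts of members called depended on single arrays and on the variance model. With 1 array left out in turn, the count ran from 0 to 1 in eosinophilic, 0 to 4 in mixed and 0 to 5 in neutrophilic mice against control, from 0 to 5 for mixed and 0 to 1 for neutrophilic against eosinophilic mice, and from 0 to 6 in the F test. Without the 3 arrays of compressed range the counts were 3, 8 and 10 against control for eosinophilic, mixed and neutrophilic mice, 1 for neutrophilic against eosinophilic mice and 9 in the F test; that fit holds 1 eosinophilic array, assumed to vary like the other groups. Quantile normalization gave 0 in mixed and 1 in neutrophilic mice, the trend and robust setting 4 in each and 4 in the F test, a fit of only the 2 groups 7 in mixed and 4 in neutrophilic mice, the dim gene filter 1 in the F test, and Cd3e subtraction 0 in mixed and 0 in neutrophilic mice. Neutrophilic against mixed mice gave 0 under every alternative run. The share of all genes called was not worked out for the changes of scaling, variance model, samples fitted or dim gene filter. For most fits with arrays left out it was not worked out either. These counts therefore cannot tell a change in the members from a change in calls over all genes. Estimates near 0 changed sign. That of Cd3e in eosinophilic mice, -1.01 over 12 arrays, also did so without the compressed arrays. In eosinophilic against control mice, leaving out 1 array moved Foxp3 between -0.27 and 0.16, Tnfrsf18 between -0.35 and 0.14 and Tigit between -0.32 and 0.61. Without the compressed arrays these mice gave 0.53 for Tnfrsf18, 0.60 for Tigit and 0.67 for Cd3e, and Tigit was 0.32 after quantile normalization and 0.032 after centring on array medians. Cd3e in neutrophilic mice ran from -0.050 to 1.33 with 1 array left out. Of 570 alternative values for single members against control, 14 changed sign, 21 lost and 49 gained a call. The cause was not tested. No paired analysis was possible because the groups share no replicate numbers.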
